A study of Mus musculus with 14 samples.

Results

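The regions described here are 593 DMC1 peaks that were found at annotated transcription start sites in *Hells* CTRL testes and had no counterpart in *Hells* cKO testes. They were chosen by measured values. Each is an autosomal *Hells* CTRL peak with a strength under 339, no *Hells* cKO center within 399 bp, and the start of at least 1 GENCODE M21 transcript within 1 kb of its center. They made up 593 of the 11133 peaks of the *Hells* CTRL list and 6.45% of the 9198 autosomal peaks that met the conditions on strength and partner (95% interval 5.95 to 6.97%). The lack of a *Hells* cKO partner is the rule itself: 97.2% of the 9463 autosomal *Hells* CTRL peaks under the strength limit had none, so that it is no finding about the peaks at starts. Split by position, 88.2% of those at a start had no partner (593 of 672, 85.6 to 90.6%), against 97.9% of those away from starts (97.6 to 98.2%). They are called CTRL-only start hotspots here, and the 8605 peaks that met the same conditions with no start within 1 kb serve as the distal CTRL-only hotspots.

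DMC1 ChIP-SSDS was performed on whole testes of adult mice. *Hells* CTRL mice were *Hells* fl/Δ (5 weeks old, 2 testes per replicate), and *Hells* cKO mice were *Hells* fl/Δ;Stra8-iCre (9 weeks old, 3 testes per replicate). Both groups carried 1 deleted *Hells* allele and the *Prdm9* Dom2 allele, on a C57BL/6 background, and the groups differed in age as well as in the Cre transgene, so that age and genotype cannot be told apart. The *Stra8* promoter drives Cre in the male germ line, and the study describes that deletion may have been incomplete in some spermatocytes. The 2 replicates of each genotype were merged into 1 peak list before deposition (11133 *Hells* CTRL and 17117 *Hells* cKO peaks). The lists hold a position and a strength per peak and no read counts, so the depth is unknown, no value has an error between mice, and no test across mice was possible. Peaks are not replicates: every interval below is a 95% interval for counting error only. There is no expression measurement with which to check the tissue label or which starts were in use.

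Meiotic recombination starts with programmed DNA double-strand breaks (DSBs). In mice they form at hotspots where the zinc finger protein PRDM9 recognizes a sequence motif and methylates the nearby histones, and DMC1 then coats the resected single-stranded ends, which is what SSDS sequences. Without PRDM9, breaks move to promoters and other sites that carry H3K4me3 from other enzymes, many of them in CpG islands. HELLS is an SNF2-family chromatin remodeler that binds PRDM9. Both kinds of site can lie close together at a start, and the question here was what the control hotspots at starts look like beside the *Hells* cKO peaks at starts and beside the distal control hotspots.

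To compare sequence, words of 8 bases were searched on both strands within 100 bp of the peak center. The 20 words with the largest ratio of centers to flanks (windows 1000 bp away) were taken from the distal CTRL-only hotspots alone, so no start hotspot took part in choosing them. In order of that ratio they were GGTGCTAC, GATGCTAC, GATGCTGC, GCAGCACC, GCTACTAC, GATACTAC, GCAGTAGC, GAAGCTAC, GCTGCTAC, GCAGCAGC, AGTAGCAC, GATACTGC, GCTGCCAC, AGCTACTG, AGCAGCAT, AAGCTACT, GGTGTTAC, ACAGTAGC, GGCAGCAC and GGTAGCAC. Several overlap each other by all but 1 or 2 of their letters, and at least 1 of them was present within 100 bp of 13.5% of the 125891 distinct autosomal starts of the annotation.

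The center sequences of 4 start hotspots are shown because these were the strongest with such a word among the 527 hotspots eligible for printing, whose windows held no annotated UTR. Each covers 200 bases of GRCm38.p6 around the center on the plus strand, and capitals mark the enriched words. The windows are Sorbs2 (chr8:45770345-45770544), Carf (chr1:60105920-60106119), Gm9961 (chr16:11902149-11902348) and Nbeal2 (chr9:110633812-110634011).
Sorbs2 center: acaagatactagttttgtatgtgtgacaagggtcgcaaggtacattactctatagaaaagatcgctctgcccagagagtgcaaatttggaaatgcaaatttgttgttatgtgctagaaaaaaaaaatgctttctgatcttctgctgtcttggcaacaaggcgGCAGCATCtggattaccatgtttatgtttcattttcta
Carf center: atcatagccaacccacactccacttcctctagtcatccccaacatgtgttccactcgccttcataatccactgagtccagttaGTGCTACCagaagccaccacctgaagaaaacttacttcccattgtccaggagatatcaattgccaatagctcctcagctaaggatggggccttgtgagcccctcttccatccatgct
Gm9961 center: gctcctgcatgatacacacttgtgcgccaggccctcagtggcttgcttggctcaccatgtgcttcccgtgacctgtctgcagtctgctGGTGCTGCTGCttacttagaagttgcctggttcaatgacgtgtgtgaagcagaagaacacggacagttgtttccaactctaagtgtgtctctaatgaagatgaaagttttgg
Nbeal2 center: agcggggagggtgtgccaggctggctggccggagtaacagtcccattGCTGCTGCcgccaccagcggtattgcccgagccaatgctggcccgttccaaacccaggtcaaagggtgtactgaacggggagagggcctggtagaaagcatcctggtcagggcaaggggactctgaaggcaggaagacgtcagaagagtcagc
Sorbs2 (an adaptor protein of the actin cytoskeleton) had a strength of 326 with the center 110 bp upstream of the start. Carf, whose product is a calcium-responsive transcription factor, had 321 at 676 bp downstream, the lincRNA gene Gm9961 had 321 at 886 bp downstream, and Nbeal2, which is needed for platelet alpha granules, had 320 at 537 bp downstream, inside a coding exon. In Gm9961 2 words overlap within a run of 11 bases just left of the center. These 4 hotspots had 2 to 22 CpG within 250 bp of the center.

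The next sequences are, among the same 527 hotspots, the strongest not yet shown with a word and a center within 250 bp of a start. They lie at Gm36423 (chr13:9688683-9688882), Gm6230 (chr7:87242807-87243006) and Gabpa (chr16:84852235-84852434).
Gm36423 center: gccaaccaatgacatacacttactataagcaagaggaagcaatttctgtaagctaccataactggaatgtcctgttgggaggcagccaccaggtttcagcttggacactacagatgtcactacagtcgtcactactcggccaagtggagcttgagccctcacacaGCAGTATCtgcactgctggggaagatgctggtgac
Gm6230 center: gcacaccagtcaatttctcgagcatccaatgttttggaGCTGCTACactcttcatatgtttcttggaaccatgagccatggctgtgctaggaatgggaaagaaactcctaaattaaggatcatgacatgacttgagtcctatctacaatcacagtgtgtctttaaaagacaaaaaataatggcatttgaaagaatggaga
Gabpa center: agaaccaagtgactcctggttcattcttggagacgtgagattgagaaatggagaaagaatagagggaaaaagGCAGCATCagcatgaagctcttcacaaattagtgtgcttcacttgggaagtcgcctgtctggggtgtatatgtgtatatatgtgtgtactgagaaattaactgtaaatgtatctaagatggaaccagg
The antisense gene Gm36423 (strength 294) had its center 60 bp upstream of the start, the processed pseudogene Gm6230 (269) 22 bp upstream and Gabpa (253), an ETS-family transcription factor gene, 248 bp upstream. Their centers had 11, 2 and 4 CpG within 250 bp. A center close to a start did not go with a CpG-dense window in these 3 hotspots.

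The last sequences are those of the strongest of the 527 hotspots whose nearest start was CpG-rich, defined as at least 55% G+C and an observed over expected CpG ratio of at least 0.6 in the 500 bases around the start. They lie at Rpp38 (chr2:3331587-3331786), Zfp462 (chr4:54944428-54944627) and Ephx3 (chr17:32188389-32188588).
Rpp38 center: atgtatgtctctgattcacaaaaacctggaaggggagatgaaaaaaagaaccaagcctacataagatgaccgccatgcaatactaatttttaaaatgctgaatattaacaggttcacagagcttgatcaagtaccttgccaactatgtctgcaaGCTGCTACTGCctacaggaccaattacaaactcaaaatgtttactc
Zfp462 center: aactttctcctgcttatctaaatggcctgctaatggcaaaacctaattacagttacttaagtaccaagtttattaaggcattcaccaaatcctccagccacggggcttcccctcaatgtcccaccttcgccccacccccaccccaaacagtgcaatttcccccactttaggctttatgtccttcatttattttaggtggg
Ephx3 center: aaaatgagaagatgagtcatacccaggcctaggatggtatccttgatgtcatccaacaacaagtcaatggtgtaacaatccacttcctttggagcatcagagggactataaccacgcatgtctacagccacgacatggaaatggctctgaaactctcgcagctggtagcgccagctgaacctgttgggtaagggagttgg
Rpp38, a subunit of ribonuclease P (strength 174), Zfp462, a zinc finger gene (144), and Ephx3, an epoxide hydrolase gene (120), had only 3, 4 and 8 CpG around the center, with the start itself 956, 520 and 974 bp away. The *Hells* cKO list had a center 780 bp from that of Rpp38 (strength 54) and 843 bp from that of Ephx3 (strength 14), and 4566 bp from that of Zfp462 (strength 31). The CpG-rich start and the center of the control hotspot were separate stretches of sequence in these cases. The partner condition takes away control peaks near a *Hells* cKO center, so this is not independent of the rule. The deposited intervals at Rpp38 and Ephx3 also overlapped a *Hells* cKO interval. All 33 hotspots with a CpG-rich nearest start had a mean of 13.5 ± 11.7 CpG around the center, with a maximum of 60.

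The strength, which is the authors' score for the signal of a peak, had a median of 54 among the 593 start hotspots (quartiles 32 and 104, range 14 to 337) and of 54 among the distal ones (quartiles 30 and 113, range 11 to 338). The start hotspots held 3.13% of the summed strength of the *Hells* CTRL list, and their median percentile within that list was 44.5. The upper end is set by the rule. Their intervals had a median width of 1700 bp, against 1662 bp for the distal hotspots. When the CTRL-only peaks were divided at these quartiles of the start hotspots, peaks at a start made up 6.09% (5.20 to 7.08%), 6.93% (5.86 to 8.12%), 7.08% (6.01 to 8.27%) and 5.91% (5.02 to 6.90%), from the weakest to the strongest class. All of these intervals overlapped.

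Centers were spread evenly around the start. In bins of 200 bp, from 1000 bp upstream to 1000 bp downstream, the counts were 59, 55, 49, 53, 62, 77, 66, 56, 54 and 62. Of the 593 hotspots, 278 had the center upstream and 314 downstream (53.0%, interval 48.8 to 57.03%), and 1, at the pseudogene Defa-ps13, had it on the start. The 10013 autosomal *Hells* cKO peaks within 1 kb of a start were gathered instead: 4021 lay in the first 200 bp downstream and 43 in the outermost upstream bin, and 70.0% were downstream (69.1 to 70.9%). The difference in the downstream share was -17.1 percentage points (interval -21.2 to -13.0).

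**Figure D1:**
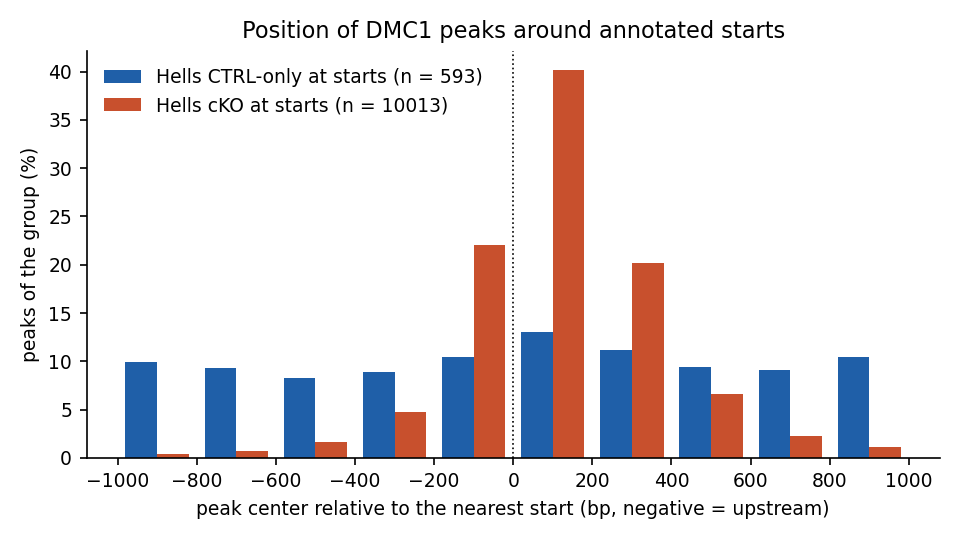
Percent of peaks (y axis) by distance of the center from the nearest start in bins of 200 bp (x axis, negative values upstream), for 593 CTRL-only start hotspots (blue) and 10013 *Hells* cKO peaks at starts (orange). The blue bars stay between 8.26 and 13.0%, whereas the orange bars rise to 40.2% just downstream of the start.

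Within 500 bp of the nearest start lay 310 of the 593 hotspots (52.3%, 48.2 to 56.4%), against 92.7% of the *Hells* cKO peaks at starts, a difference of -40.4 points (-44.5 to -36.4). The median distance was 476 bp (quartiles 218 and 749), against 141 bp for *Hells* cKO (54 and 278). Where several starts lie in reach the nearest is close by construction. Among the 480 hotspots with 1 start in reach, 239 (49.8%, 45.2 to 54.4%) were within 500 bp. The partner condition also takes peaks away from the position of *Hells* cKO peaks. When the 79 *Hells* CTRL peaks at starts that did have a partner were added back, 377 of 672 (56.1%, 52.3 to 59.9%) were within 500 bp, still far from the *Hells* cKO value. By themselves those 79 common peaks had 84.8% within 500 bp (74.97 to 91.9%).

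Centers had few CpG. The 593 hotspots had a mean of 6.21 ± 5.03 CpG (SD over peaks) within 250 bp of the center and 45.6 ± 6.46% G+C. The distal CTRL-only hotspots had 4.35 ± 3.10 CpG and 43.0 ± 5.75% G+C, and the *Hells* cKO peaks at starts 39.97 ± 18.9 CpG and 63.4 ± 8.99% G+C. Only 13 of 593 (2.19%, 1.17 to 3.71%) reached 20 CpG, against 83.4% of the *Hells* cKO peaks at starts and 0.163% of the distal hotspots. A part of this is set by the partner condition. Of the 79 common peaks at starts, 55 reached 20 CpG (69.6%), with a mean of 35.8 CpG. With these added back, 68 of 672 did (10.1%, 7.94 to 12.7%), and the mean was 9.69 ± 12.9 CpG. Hotspots within 250 bp of a start had 7.28 ± 6.19 CpG (n = 176) and those over 750 bp away 5.73 ± 4.76 (n = 148), which was not tested.

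**Figure D2:**
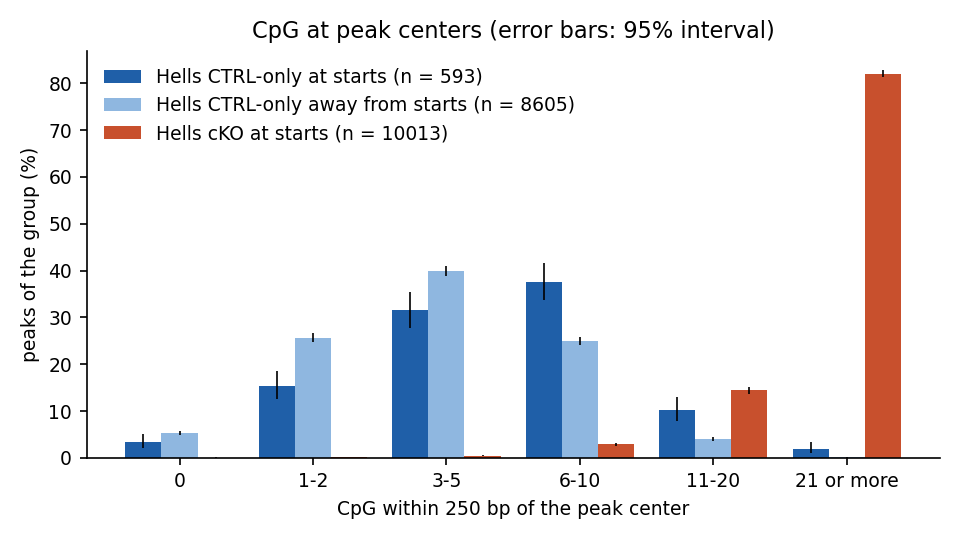
Percent of peaks (y axis) by the number of CpG within 250 bp of the center (x axis) for CTRL-only start hotspots (dark blue), distal CTRL-only hotspots (light blue) and *Hells* cKO peaks at starts (orange), with 95% intervals. The class of 21 or more CpG holds 82.1% of the orange group and 1.85% of the dark blue group, from which the partner condition took away the common peaks.

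Their nearest start was CpG-rich in 33 of 593 cases (5.56%, 3.86 to 7.73%), against 73.2% of the *Hells* cKO peaks at starts and 30.3% of all autosomal starts. It was 2.65% with no *Hells* cKO center within 1000 bp, 2.21% with no overlap of intervals and 9.04% with starts of protein-coding genes only. A part of this is set by the choice of the hotspots: *Hells* cKO centers lay within 1 kb of 71.8% of the 38086 CpG-rich starts and of 9.43% of the 87805 others, and a control peak near such a center was not counted as CTRL-only. Without the partner condition the share was 12.4% (83 of 672, 9.96 to 15.1%), and among the 79 common peaks it was 63.3%. Counted from the starts, all autosomal *Hells* CTRL peaks together had a center within 1 kb of 0.838% of CpG-rich starts (0.749 to 0.934%) and of 0.985% of other starts (0.921 to 1.05%). For the start hotspots alone these shares were 0.312% and 0.804%. For control peaks of any kind the share at CpG-rich starts was thus the lower one, and the gap was wider among the peaks left by the rule. Overlap of the intervals for all control peaks does not show equal rates, and the difference was not tested. A peak in reach of several starts is counted at each of them here.

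The hotspots at CpG-rich starts had a median strength of 43 (quartiles 32 and 60, n = 33), against 55 (32 and 109, n = 560) at other starts. The lower quartiles were equal, and the difference was not tested. No hotspot at a CpG-rich start exceeded 174. Of these 33, 15 had no *Hells* cKO center within 1000 bp, and 12 had no overlap with a *Hells* cKO interval. After Rpp38, Zfp462 and Ephx3 came Lhfp (strength 110, 948 bp upstream), Sh3yl1 (67, 995 bp downstream), Cdk5r1 (66, 963 bp downstream), which encodes an activator of the kinase CDK5, and Zfp324 (65, 409 bp downstream), and then the TEC gene Gm37055 (63, 520 bp upstream). Insig2, a regulator of sterol synthesis, had a hotspot of strength 60 with a *Hells* cKO center of strength 128 at 567 bp. Gcc2, a golgin gene, had one of 59 with a *Hells* cKO center of strength 129 at 887 bp. Of the 10 named hotspots of this group, 6 had the center over 800 bp from the start. Control peaks near a *Hells* cKO center were taken away by the partner condition, so this position is not independent of the rule.

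An enriched word lay within 100 bp of the center in 240 of the 593 start hotspots (40.5%, 36.5 to 44.5%). In windows of the same size 1000 bp to either side, 9.95% and 10.8% had one. The distal hotspots, from which the words were taken, had 36.3%, and the difference was 4.14 points (0.135 to 8.27). *Hells* cKO peaks at starts had a word in 14.9%, a difference of 25.6 points (21.6 to 29.6), near the 13.5% of all starts. The 79 common peaks at starts had one in 26.6% (17.3 to 37.7%). Start hotspots therefore carried the words of the distal control hotspots at no lower share than those did, although the words had not been chosen on them.

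In bins of 100 bp, 21.8% and 23.1% of the start hotspots had a word on the left and right of the center, 10.96% and 12.98% in the next bins outward, and 3.54 to 7.76% in each bin further out. The nearest word was at a median of 37.5 bp from the center in the 240 hotspots with one (quartiles 21 and 61), and in 75 of them (31.2%) within 25 bp. Most had few words: 119 had 1, 76 had 2, 30 had 3, 7 had 4 and 6 had 5, and 1 hotspot each had 12 and 14. With strength the share with a word went from 35.4% (28.01 to 43.4%) and 35.0% in the weaker classes to 42.2% and 49.3% (41.0 to 57.7%) in the stronger ones, and the intervals of the weakest and the strongest class overlapped.

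**Figure D3:**
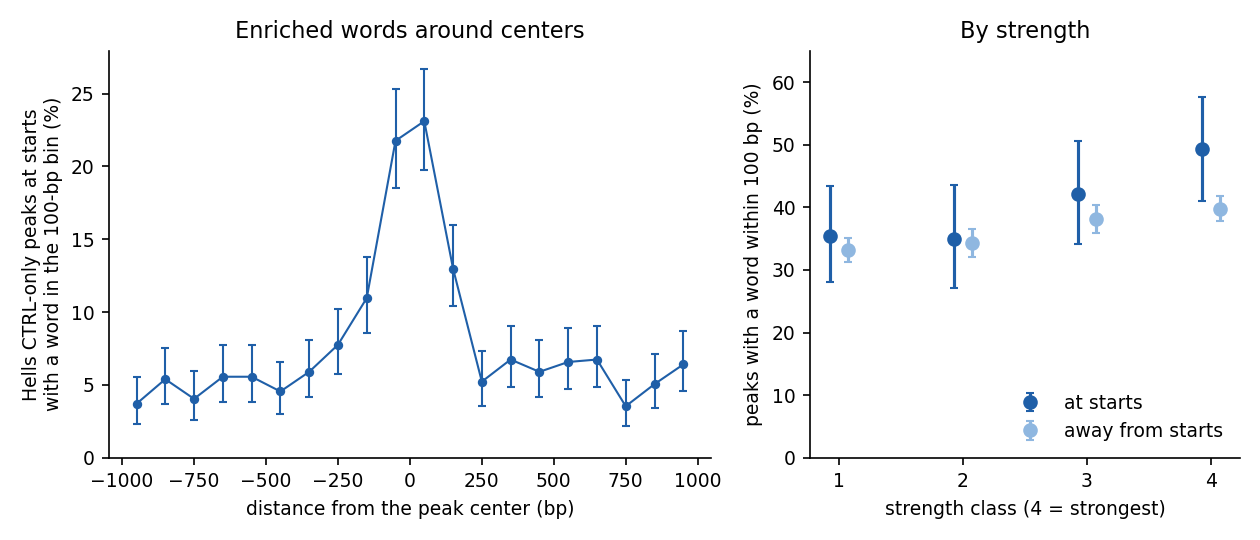
Left, percent of the 593 CTRL-only start hotspots with an enriched word (y axis) in each 100-bp bin around the center (x axis, genomic left to right), with a maximum of 23.1% next to the center. Right, percent with a word within 100 bp by strength class, 4 being the strongest, for start hotspots (dark blue) and distal hotspots (light blue), where bars are 95% intervals.

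By position, gene class and CpG the share with a word was counted without a test of the differences. Of the 69 hotspots within 100 bp of a start, 35 had one (50.7%, 38.4 to 63.0%), and of the 148 over 750 bp away 59 had one (39.9%, 31.9 to 48.2%). At CpG-rich starts 11 of 33 had a word (33.3%, 17.96 to 51.8%), and at other starts 229 of 560 (40.9%, 36.8 to 45.1%). By gene class the share ranged from 29.0% at TEC genes (9 of 31) to 44.3% at pseudogenes (35 of 79), with overlapping intervals. Among the single words, GCAGCAGC was found in the most start hotspots (51 of 593, 8.60%), and it was also the most frequent word at starts in general (4.19% of all starts). The first word of the list, GGTGCTAC, was found in 22 hotspots (3.71%) and in 0.319% of starts, and GATGCTAC in 29 (4.89%) and 0.309%.

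The deposited intervals of 50 start hotspots (8.43%, 6.32 to 10.96%) touched a *Hells* cKO interval by at least 1 bp, and 28 (4.72%) had a *Hells* cKO center between 399 and 1000 bp away, against 0.453% of the distal hotspots. Among these 28, the strongest was at the pseudogene Gm11223 (strength 316, *Hells* cKO center of 93 at 536 bp), followed by Snhg6, a small nucleolar RNA host gene (176, *Hells* cKO center of 102 at 831 bp). Of the 50 overlapping hotspots 21 had a word (42.0%, 28.2 to 56.8%), and of the 543 without overlap 219 (40.3%, 36.2 to 44.6%). For all 593 the median distance to the nearest *Hells* cKO center was 26807 bp, against 55219 bp for the distal hotspots. Of the 17117 *Hells* cKO peaks, 10013 were autosomal and within 1 kb of a start. Peaks chosen at starts are thus nearer to them in part by construction.

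The nearest start belonged to a protein-coding gene in 345 of 593 cases (58.2%, 54.1 to 62.2%), to a long noncoding gene in 97 (16.4%), to a pseudogene in 79 (13.3%), to a small RNA gene in 41 (6.91%) and to a TEC gene, a class still to be verified experimentally, in 31 (5.23%). Among all autosomal starts 72.2% were of protein-coding genes, so that the share at start hotspots differed by -13.99 percentage points (interval -18.01 to -10.1). The difference from the *Hells* cKO peaks at starts (85.0%) was -26.8 points (-30.9 to -22.8). Pseudogenes exceeded their share of starts by 3.59 points (1.09 to 6.57), long noncoding genes by 5.35 (2.58 to 8.54), small RNA genes by 2.39 (0.612 to 4.73) and TEC genes by 2.66 (1.14 to 4.76). The partner condition bears on these shares. Of the 79 common peaks at starts, 81.0% had a protein-coding nearest start. With these added back, the shares were 60.9% for protein-coding genes and 12.2% for pseudogenes. Each peak is counted once here, whereas the background counts every distinct start. Median strengths of the classes lay between 46 (pseudogenes) and 61 (small RNA genes), inside the quartiles of each class.

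**Figure D4:**
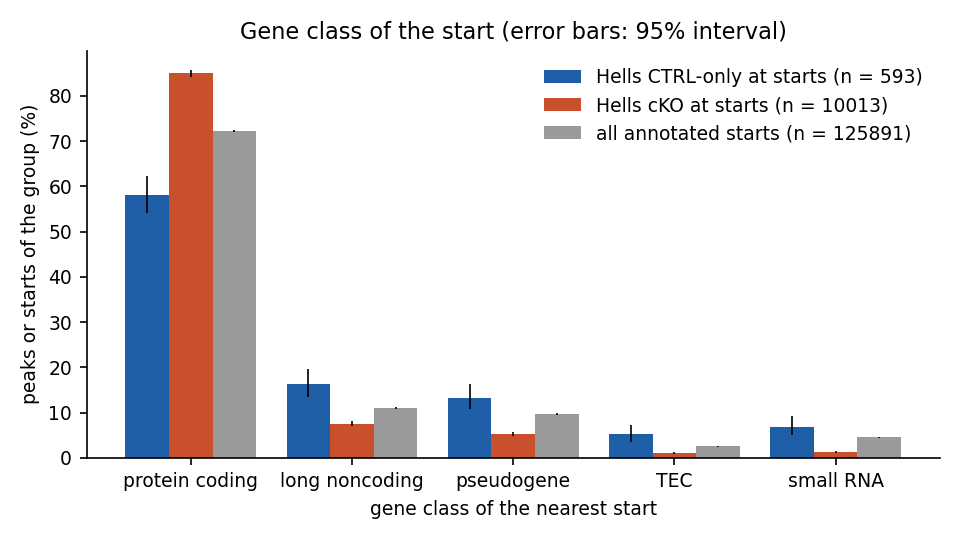
Percent of peaks or starts (y axis) by gene class of the nearest start (x axis) for CTRL-only start hotspots (blue), *Hells* cKO peaks at starts (orange) and all distinct autosomal starts (gray), with 95% intervals. Protein-coding genes hold 58.2% of the blue group and 85.0% of the orange one.

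Even within protein-coding genes the starts were often those of partial or noncoding transcripts. Of the 345 nearest starts, 85 (24.6%, 20.2 to 29.5%) were the start of a transcript with the GENCODE tag basic, which marks the representative full-length transcripts of a gene, against 44.1% of all starts of protein-coding genes and 55.9% of those nearest to a *Hells* cKO peak. The differences were -19.5 (-23.8 to -14.7) and -31.2 points (-35.6 to -26.3). Starts with retained-intron transcripts only were 119 of 345 (34.5%, 29.5 to 39.8%), against 21.3% of all such starts, a difference of 13.2 points (8.41 to 18.4). These shares hold for the peaks left by the partner condition. Among the 64 common peaks nearest to a start of a protein-coding gene, 54.7% had a basic transcript and 6.25% had retained-intron transcripts only. By position 51.8% of the 593 centers were in introns, 23.3% in exonic sequence that is not coding, 7.42% in coding exons and 17.5% between genes.

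The strongest CTRL-only start hotspots had strengths just under the limit of the rule. They were at the pseudogene Gm11969 (337, 396 bp downstream of the start, chr11:6181777-6183498), the TEC gene 2610001A08Rik (335, 866 bp downstream, chr11:19004613-19006600), the antisense gene Gm17139 (334, 778 bp downstream) and the pseudogene Gm17952 (332, 516 bp downstream). Fabp7, which encodes a fatty acid binding protein of glia, had a hotspot of 327 only 58 bp downstream of the start, in an exon that is not coding there, with a word and 9 CpG (chr10:57783999-57785962). Sorbs2, the lincRNA gene Gm44733 (324, 104 bp downstream), Cnot11, a CCR4-NOT subunit (322, 680 bp downstream), Carf and Gm9961 completed the 10 strongest. Of these 10, 4 were nearest to a protein-coding gene and 5 had a word: Gm17139, Fabp7, Sorbs2, Carf and Gm9961. Each had at most 9 CpG within 250 bp, and 9 of 10 had the center downstream of the start.

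Among the hotspots closest to a protein-coding start were those at Akt2, a kinase of insulin signaling, 7 bp upstream (strength 122), Pcdhb12, a clustered protocadherin, 8 bp downstream (28), and Csnk2b, the regulatory subunit of casein kinase 2, 11 bp downstream (152). Cacnb2, a calcium channel subunit (strength 72), was 13 bp away, Dennd1b (248) and Gpld1 (88) 16 bp, Spdl1 (74), a spindle checkpoint gene, 18 bp, Mtfmt (39) 25 bp and Ints1 (21) 27 bp. None of these 9 starts was CpG-rich, and the centers had 3 to 14 CpG. For Akt2 the nearest *Hells* cKO center lay 13873 bp away (strength 37), and for Pcdhb12 208423 bp away (strength 21). At Mtfmt a *Hells* cKO center lay 1058 bp away (strength 26). Of the 9, 5 had an enriched word: Akt2, Csnk2b, Gpld1, Spdl1 and Ints1.

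Genes can have several starts, and the control and the mutant peak can then sit at different ones. A total of 349 protein-coding genes had a start within 1 kb of a CTRL-only start hotspot. The hotspot was in reach of the first start of the gene, the one furthest upstream, in 81 (23.2%, 18.9 to 27.999%). A *Hells* cKO center was in reach of the first start in 188 (53.9%, 48.5 to 59.2%), against 40.2% of all autosomal protein-coding genes. The partner condition takes away control peaks near a *Hells* cKO center, so the share for the hotspots is not independent of the rule. At another start, out of reach of any CTRL-only start hotspot, 202 of the 349 genes (57.9%, 52.5 to 63.1%) had a *Hells* cKO peak. With basic transcripts only, this held for 22 of 110 genes (20%, 12.98 to 28.7%). Among all 21301 autosomal protein-coding genes 44.5% had a *Hells* cKO center at any start, and among the 349 genes 217 did (62.2%, 56.9 to 67.3%).

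The number of starts differed as well, and a gene with more starts has more chances of both peaks. Its part in the higher share was not tested. The 349 genes had a median of 6 distinct starts (quartiles 4 and 10), against 3 (2 and 6) for all protein-coding genes. At equal numbers of starts the shares with a *Hells* cKO peak were 18.5% against 20.1% for genes with 1 start (5 of 27 hotspot genes), 48.9% against 39.0% for 2 to 4 starts, 68.2% against 64.4% for 5 to 9 and 77.1% against 72.2% for 10 or more. Each of these values for all genes lay within the interval of the hotspot genes (6.30 to 38.1%, 38.1 to 59.8%, 59.4 to 76.1% and 67.9 to 84.8%). The hotspot genes had the lower share at 1 start and the higher share in each class from 2 starts up. Intervals this wide cannot decide whether an excess remains at equal numbers of starts, and this was not tested.

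In the 202 genes with both peaks the control hotspot was downstream of the strongest *Hells* cKO peak at another start, in the direction of transcription, in 192 (95.0%, 91.1 to 97.6%). This follows in part from the geometry, since a peak at the first start leaves other starts only downstream. The centers were a median of 19451.5 bp apart (quartiles 9219 and 49549), and their median strengths were 55 for *Hells* CTRL and 54.5 for *Hells* cKO, which are scores of separate lists that were not scaled to each other. The control hotspots had a mean of 6.49 CpG and the *Hells* cKO peaks 47.3. CpG were more numerous at the *Hells* cKO peak in 199 genes, equal in 1 (Ctnnd1, 7 at both) and fewer in 2, namely Rims2 (28 against 18) and Sorbs2 (9 against 7). The *Hells* cKO peaks at starts had more CpG than the start hotspots as whole groups, so this count is no separate finding.

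**Figure D5:**
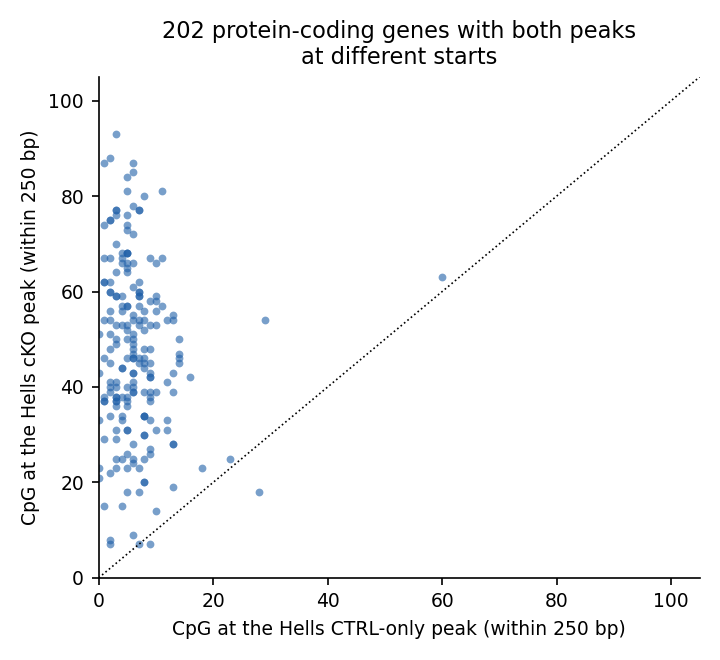
Number of CpG within 250 bp of the center of the CTRL-only start hotspot (x axis) and of the strongest *Hells* cKO peak at another start of the same gene (y axis), 1 point for each of 202 protein-coding genes, with the line of equality dotted. 199 points lie above the line.

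Among these genes Arid4a, a subunit of SIN3 repressor complexes, had the strongest *Hells* cKO peak at another start (493, 54 CpG), and its control hotspot (32, 29 CpG) lay 1193 bp upstream of it. Wac had a *Hells* cKO peak of 331 and a control hotspot of 52 only 497 bp downstream, both in one CpG-dense stretch (63 and 60 CpG). In the other named genes the peaks were further apart. Epc1, of the NuA4 acetyltransferase complex, had a *Hells* cKO peak of 303 and a control hotspot of 18 that was 49673 bp downstream. Fam208a, a HUSH complex gene, had 292 and 83 at 9268 bp, and Iws1, a transcription elongation factor gene, 263 and 306 at 15365 bp. For Cep192, a centrosome gene, the values were 256 and 128 at 54098 bp, for N4bp2 237 and 41 at 60422 bp, for the corepressor gene Ncor1 233 and 26 at 112365 bp and for the nonsense-mediated decay gene Upf2 222 and 88 at 71667 bp. In the synaptic gene Rims2 the order was turned: the control hotspot (37) was at the first start, and the *Hells* cKO peak at another start (253) 238409 bp downstream of it. A stronger *Hells* cKO peak (629) was centered 660 bp from that control hotspot, in reach of the same first start.

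Gene families were counted by their symbols, with the share of all 21301 protein-coding genes at a start hotspot (349 genes, 1.64%) as the background for coding families, and 44.5% as that for *Hells* cKO peaks. The share at a start hotspot was 0.563% for genes with 1 start, 0.992% for 2 to 4, 2.22% for 5 to 9 and 5.80% for 10 or more. Families were not compared at equal numbers of starts, so a share under 1.64% is not shown to be a depletion. Olfactory receptors had 5 of 1128 genes at a start hotspot (0.443%) and 11 at a *Hells* cKO peak. These were Olfr1132 (strength 22), Olfr1294 (167), Olfr1368 (28), Olfr212 (224) and Olfr447 (119), and only Olfr1368 had a word. Vomeronasal receptors had 1 of 329 (Vmn1r236, strength 61), and keratin and keratin-associated genes (Krt and Krtap) 1 of 110 (Krt2, 71). Zfp zinc finger genes had 7 of 385 (1.82%) at a start hotspot and 245 (63.6%) at a *Hells* cKO peak. The 5 strongest hotspots of this family were at Zfp462 (144), Zfp106 (70), Zfp324 (65), Zfp523 (65) and Zfp69 (54).

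Ion channel genes were counted only by the symbols Kcn, Cacn, Scn, Gabr, Gria, Grin, Grik and Grid. They had 2 of 164, Cacnb2 (strength 72) and Kcnk5 (42, with a *Hells* cKO center of strength 32 at 495 bp). Channel genes with other symbols, such as Trpv3 (strength 296), are not in this count. Cadherins and protocadherins had 2 of 90, Pcdh12 (222, 39 bp from the start) and Pcdhb12 (28). No Hox gene (of 39), clustered histone gene (of 67), ribosomal protein gene (of 92) or proteasome gene (of 49) had a start hotspot, and at 1.64% few would be counted in families of this size. *Hells* cKO peaks were at 10.3%, 59.7%, 70.7% and 75.5% of them, beside 44.5% of all protein-coding genes. MicroRNA genes had 7 of 1090, the strongest at Mir5618 (86), Mir719 (79), Mir6238 (68), Mir6902 (58) and Mir3061 (55). Gm predicted genes had 201 of 23698 (0.848%), against 1.19% of all 51229 genes.

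Of 40 genes of meiotic recombination and synapsis, 35 (87.5%, beside 44.5% of all protein-coding genes) had a *Hells* cKO center within 1 kb of a start. Only Trip13 had a CTRL-only start hotspot, and this share of 2.5% is near the 1.64% of all protein-coding genes. Trip13 encodes the ATPase that removes HORMA-domain proteins from synapsed axes. Its hotspot had a strength of 59, lay 409 bp downstream of a start in an intron and held a word (chr13:73934820-73936755). The *Hells* cKO peak at another of its 3 starts had a strength of 28 and was centered 1824 bp away, with 60 CpG against 7 at the control hotspot. This is the arrangement of the 202 genes above at a short distance.

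By chromosome, the share of CTRL-only hotspots at a start went from 4.51% on chromosome 5 (27 of 599, 2.99 to 6.49%) to 8.65% on chromosome 2 (61 of 705, 6.68 to 10.98%). The intervals of these extremes, which were picked from 19 chromosomes, did not overlap. Repeat-masked sequence made up 17.2 ± 16.4% of the 500 bases around the centers, against 21.9 ± 19.6% at distal hotspots.

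At the limits of the rule, the peaks just under the strength limit were Gm11969, 2610001A08Rik and Gm17139 (337, 335 and 334), and those just over it were at Gm23233 (341), Ndufs1 (343) and BB123696 (345). Just inside the partner distance were Gm43514 (*Hells* cKO center at 432 bp), Akap8 (434) and Slco6b1 (440), and just outside it, and so counted as common, Jtb (388), Dnajc9 (365) and Gm6602 (344). Just inside the reach of 1 kb were Gm26255 (1000 bp), Gm3800 (999) and Sh3yl1 (995), and just beyond it Acad12 (1002), Gm18558 (1008) and Gm44301 (1008).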

How the data were processed

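DMC1 ChIP-SSDS of whole testes was analysed from 1 peak list per genotype. The hotspots and all lists used were chosen with earlier results of these data known. The authors trimmed reads to 50 bp, required a Phred score over 28, aligned to GRCm38/mm10 with tools made for SSDS, discarded duplicates and reads with several positions, called MACS2 peaks and kept the top pooled peaks by their Irreproducible Discovery Rate. Strength is the authors' deposited score, said to be a background-corrected, library-scaled fragment count, but given in whole numbers. The deposited positions are BED intervals. The 5hMeDIP samples were not analysed here.

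Here the center was the integer midpoint. Starts were those of GENCODE M21 transcripts, the nearest being taken (ties: protein-coding, then symbol). Sequence came from GRCm38.p6 (RefSeq). Words had to occur at 100 or more distal centers. Shares have exact Clopper-Pearson intervals and differences Newcombe intervals, at 95%. Named were the 10 strongest hotspots, the 10 nearest to a coding start (1 of them is not reported here), the 10 genes with the strongest *Hells* cKO peak at another start, up to 5 per family and the 3 peaks at each side of each limit. Sequences were limited to the 527 hotspots off chromosome 18 with no annotated UTR in the window. Other named hotspots (those at CpG-rich starts and those within 1000 bp of a *Hells* cKO center), the transcript kinds and the comparison at equal numbers of starts were chosen after values had been seen. Of 45 meiotic genes listed, 40 matched an autosomal symbol. The code was tested on simulated data. Scripts ran in Python 3.11.15 with scipy 1.17.1, pandas 2.3.3 and numpy 2.4.6, and figures were drawn with matplotlib 3.10.9.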

Additional observations from a re-analysis of the deposited data

How the results depend on the processing

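Of 122 recomputed values of 13 results, 95 stayed within 1.5 times the count or inside the interval or spread of the value in the text, and 27 moved. The spread was the SD over peaks for means and the quartiles for medians. These limits are wide (1.18 to 11.2 for the mean of 6.21 CpG), so staying inside them says little. The mean of 2.57 CpG within 100 bp on each side, not scaled to the larger window, was counted as inside. With protein-coding genes only there were 354 hotspots (3.85% of CTRL-only peaks) and 9.04% had a CpG-rich nearest start. With basic transcripts only there were 345 (3.75%), of which 47.2% were within 500 bp, 8.70% at a CpG-rich start and 31.6% had a protein-coding start in reach, and 20% of their protein-coding genes had a *Hells* cKO peak at another start. A reach of 500 bp gave 310 hotspots (3.37%) and 65.1% of genes with a *Hells* cKO peak at another start, and one of 2000 bp gave 1114 (12.1%, with 7.81% at CpG-rich starts) and 50.4% of genes. With only peaks at or above the median strength of the *Hells* CTRL list, 63, there were 261 hotspots with a median strength of 118, of which 57.5% were downstream, 3.07% at CpG-rich starts and 47.5% had a word. The share at CpG-rich starts was 2.65% with no *Hells* cKO center within 1000 bp, 2.21% with no overlap of intervals and 3.20% with an observed over expected limit of 0.75. The share with a word was 24.5% and 56.2% in windows of 50 and 200 bp and 31.9% with 10 words. Lower counts follow from counting fewer peaks, starts or words. For the moves of shares the cause was not tested. No paired analysis was possible because the replicates of each genotype had been merged. For the same reason no replicate could be left out. Depth is unknown, overlapping transcripts make single start positions uncertain, and the annotation does not show which starts were active.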
